A study of Mus musculus with 670 samples.

Results

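Skeletal stem cells sorted from long bones of mice aged 24 months were compared with those of mice aged 2 months, in the wells that held at least 500 genes. A well was taken as a cell when it also held at least 50000 gene reads and under 20% of reads from the mitochondrial genome. The series holds 670 wells, 575 of them at these ages. At 24 months 65 wells passed (22.6%, exact 95% binomial interval 17.9% to 27.8%), and at 2 months 30, 78 and 76 wells of 3 plates passed (64.1%, 58.3% to 69.7%). The cells were isolated by mechanical and enzymatic digestion of the bones, staining and flow cytometry, were not cultured and received no treatment, and RNA of each well was sequenced with SmartSeq2, a method that reads full-length transcripts without molecular identifiers. All mice are labelled male, and neither group carries a mutation or transgene by the labels. The 24-month cells came from plates 2, 5 and 12 and the 2-month cells from plates 1, 3 and 4. The labels tie no cell to an animal, so an age is a single sample here; p-values are not given, and the 3 plates of an age only describe the spread. The plates of 24 months carry batch numbers 3, 2 and 3 and those of 2 months 4, 5 and 1, and since no batch holds both ages, the effects of batch and age cannot be told apart.

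Skeletal stem cells are the self-renewing cells of bone that give rise to cartilage, bone-forming osteoblasts and the stroma that supports blood formation in marrow. In young animals much of this output passes through the growth plate, where chondrocytes lay down a matrix of type II, IX and XI collagen and aggrecan. In old bone the growth plate has slowed, bone formation is lower and the marrow holds more stroma of the fat lineage.

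The plates differed in yield and in RNA content before any gene was compared. Of 95 or 96 wells a plate, 21, 18 and 26 passed on plates 2, 5 and 12 and 30, 78 and 76 on plates 1, 3 and 4. Plate 1 stood apart from the other 2-month plates in yield and in genes per cell, and counts are therefore also given without it. The depth of a cell ranged from 344182 to 5994911 gene reads at 24 months and from 53909 to 4051388 at 2 months. After every cell was thinned at random to 50000 reads, the median number of genes per cell was 546, 558.5 and 535.5 on plates 2, 5 and 12 and 586.5, 1233.5 and 1239.5 on plates 1, 3 and 4. The 500-gene limit sits close to the bulk of the 24-month wells: 15 of their cells had 500 to 599 genes and 7 further wells had 400 to 499, against 10 and 3 at 2 months. No pair of index sequences occurred on more than 1 plate, and Xist was found in 0 cells of either age.

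Each gene was compared by a level and a share. The level, in counts per 1000000 gene reads (CPM), was taken from reads summed over the cells of a plate and averaged over the 3 plates of an age, and the share is the percentage of a plate's cells with at least 1 read of the gene at 50000 reads per cell, averaged in the same way. A gene was called when it reached 20 CPM at the higher age, its levels differed at least 2-fold with 1 CPM added, its shares differed by at least 15 percentage points, and neither measure overlapped between the plates of the 2 ages. Of 7910 genes of at least 20 CPM, 2.45% were called lower at 24 months, and 29 genes (0.367%) were called higher. Without plate 1 the counts were 397 lower and 40 higher, or 4.95% and 0.499% of the genes then at that level. Intervals on shares are exact binomial over the pooled cells of an age and cover counting error only. They leave out the spread between plates and between animals, so they do not compare the ages. Reads from the same molecule are also not independent.

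**Figure D1:**
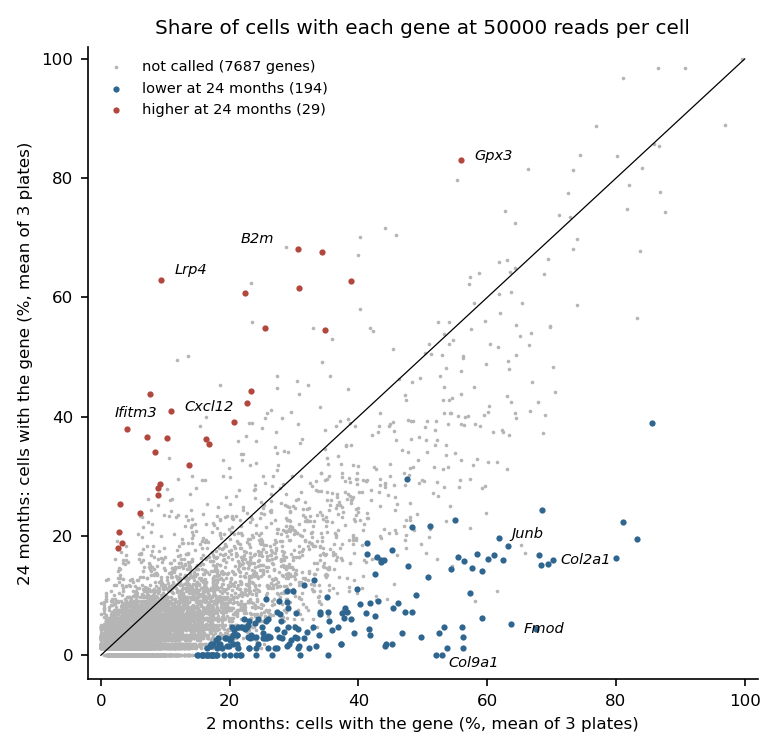
Share of cells with each gene at 50000 reads per cell, as the mean of the 3 plates at 2 months (horizontal axis, %) and at 24 months (vertical axis, %), for 7910 genes of at least 20 CPM. Blue points are the genes called lower at 24 months, red points the 29 called higher, and the line marks equal shares; the blue points reach from low to high shares at 2 months, while most red points lie on the left, at genes that few 2-month cells held.

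Genes of the cartilage matrix were low at 24 months and were held by few of its cells. Of 20 cartilage matrix genes, 16 were called lower at 24 months and 0 higher, with a median log2 difference in level of -4.75 and a median difference in share of -43.8 points, beside -0.365 and -2.65 points over all 11275 genes of at least 5 CPM. In cells of 500 to 1000 genes 1 of the 20 was called, and without cells of 3 chondrocyte markers, described further on, 0 were. Col2a1, Acan, Col9a1, Col9a2, Matn3, Cnmd and Hapln1 are both such markers and members of this list. The count of 0 was therefore in part set by the choice of cells. Col2a1, the chain of the main cartilage collagen (GRCm38, chromosome 15, 97975602 to 98004695), was at 167.5, 2045 and 267.4 CPM on plates 2, 5 and 12 and at 18899, 45862 and 55029 CPM on plates 1, 3 and 4. The lowest 2-month plate lay above the highest 24-month plate, and within 24 months plate 5 held most of the reads. Its means were 826 ± 1056 CPM at 24 months and 39930 ± 18781 CPM at 2 months (SD, n = 3 plates each), a level 48.3-fold lower. At 24 months 9 of 65 cells held Col2a1 (13.8%, interval 6.53% to 24.7%), against 140 cells at 2 months (76.1%, 69.3% to 82.1%).

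The partners of type II collagen followed the same order. Col9a1, a chain of the collagen that decorates type II fibrils, had 0 reads in the 65 cells of 24 months and 1474, 2497 and 4368 CPM on plates 1, 3 and 4; against the floor of 3 reads over all 24-month cells, its level was at least 105812-fold lower. Cnmd, which encodes chondromodulin, an inhibitor of vessel growth in cartilage, had 12 reads in 1 cell at 24 months and was held by 110 cells at 2 months (59.8%, 52.3% to 66.9%). For Acan, the core protein of the aggregating proteoglycan, levels were 0, 192.4 and 34.7 CPM on plates 2, 5 and 12 and 1129, 1132 and 1611 CPM on plates 1, 3 and 4. No plate of 24 months came near the 2-month range of these 3 genes. Col11a1, Col9a2, Col9a3, Snorc and the collagen-binding Chad were also among the 12 named genes with the largest fall in share, a ranking that leaves out called symbols beginning with Gm and a digit or ending in Rik, with 24-month shares of 15.97%, 4.72%, 3.70%, 3.13% and 16.7% and 2-month shares of 70.2%, 53.3%, 52.5%, 56.3% and 68.1%.

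The list held exceptions. Prg4, the lubricating proteoglycan of the joint surface, was not called: it stood at 807, 1422 and 2603 CPM on plates 2, 5 and 12 and at 5620, 5572 and 3608 CPM on plates 1, 3 and 4, but its shares overlapped, at 23.1% of cells on plate 12 and 13.3% on plate 1. The growth plate genes Col10a1, Matn1 and Matn4 had 0 reads at 24 months and were not called because few 2-month cells held them, with shares of 1.72%, 6.77% and 14.4%.

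Among 14 transcription factors and signals of chondrocytes, 2 were called lower and 0 higher. These were Fgfr3, a growth factor receptor that restrains growth plate chondrocytes, at 3.90 ± 5.44 CPM at 24 months and 378 ± 318 CPM at 2 months (SD, n = 3 plates each), and the ubiquitin ligase Wwp2, at 378 ± 254.3 and 1507 ± 303 CPM. Sox9, the transcription factor that specifies chondrocytes, was at 105.9, 93.5 and 165.2 CPM on plates 2, 5 and 12 and at 1174, 604 and 766 CPM on plates 1, 3 and 4. Its levels did not overlap, but 34.6% of cells held it on plate 12 and 33.3% on plate 1, so it was not called. Its cofactor Sox5 was in 7.69% of the 24-month cells and in 40.8% of the 2-month cells.

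**Figure D2:**
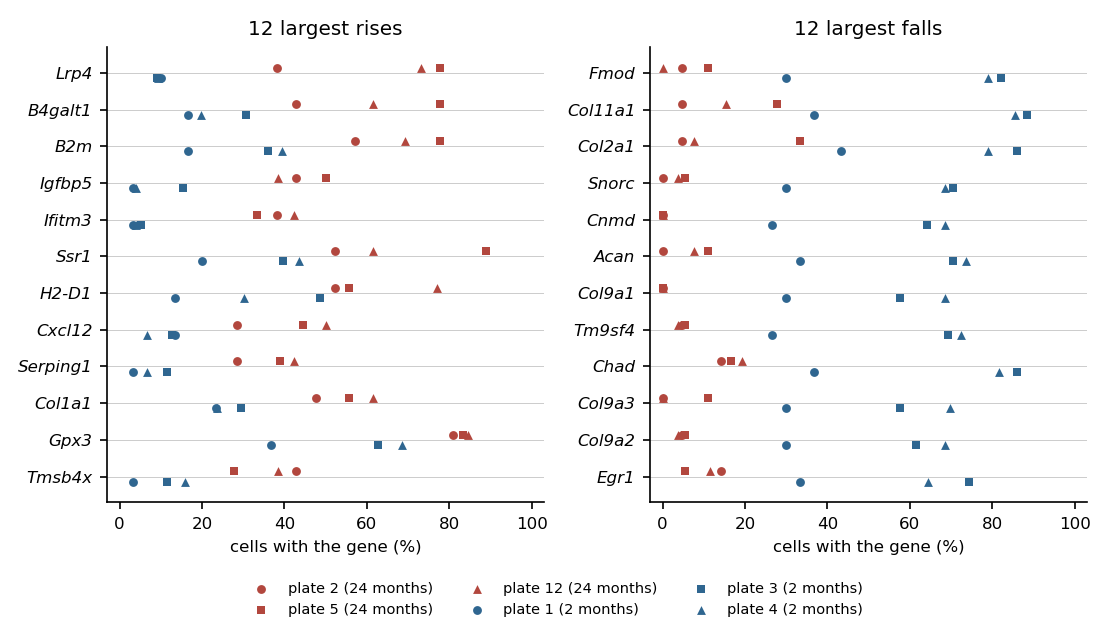
Share of cells with the gene at 50000 reads per cell (%) on each plate, for the 12 called genes with the largest rise (left) and the 12 with the largest fall (right) at 24 months, leaving out symbols that begin with Gm and a digit or end in Rik, some of which fell further. Red symbols are plates 2, 5 and 12 of 24 months and blue symbols plates 1, 3 and 4 of 2 months; plate 1 lies nearest to the 24-month plates for the genes on the right, and no red symbol passes a blue one, as the rule demands.

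Sets of cell type markers were also held by different shares of cells at the 2 ages. A cell was counted for a class when it held at least 3 of 8 markers at 50000 reads, which is a range on a scale and not a cell type. For chondrocyte markers (Col2a1, Acan, Col9a1, Col9a2, Matn3, Cnmd, Hapln1 and Sox9), 2 of 65 cells qualified at 24 months (3.08%, interval 0.375% to 10.7%), both on plate 5, and 71.7% qualified at 2 months (64.7% to 78.1%). Plate 1 had 8 of 30 such cells, plate 3 had 63 of 78 and plate 4 had 61 of 76. All of these markers except Sox9 were themselves called lower, so the class difference restates those calls and is not a separate observation. Cells with exactly 2 or 3 of these markers, near the limit, numbered 3 at 24 months and 28 at 2 months. For osteoblast markers, 27 of 65 cells qualified at 24 months (41.5%, 29.4% to 54.4%) and 32 cells at 2 months (17.4%, 12.2% to 23.7%). For marrow stromal markers these counts were 13 cells (20%, 11.1% to 31.8%) and 3 cells (1.63%, 0.338% to 4.69%). On every plate of 24 months the shares of the last 2 classes lay above those of every 2-month plate. Col1a1 is an osteoblast marker and Cxcl12 and Vcam1 are marrow stromal markers, and all of them were called higher on the same cells.

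**Figure D3:**
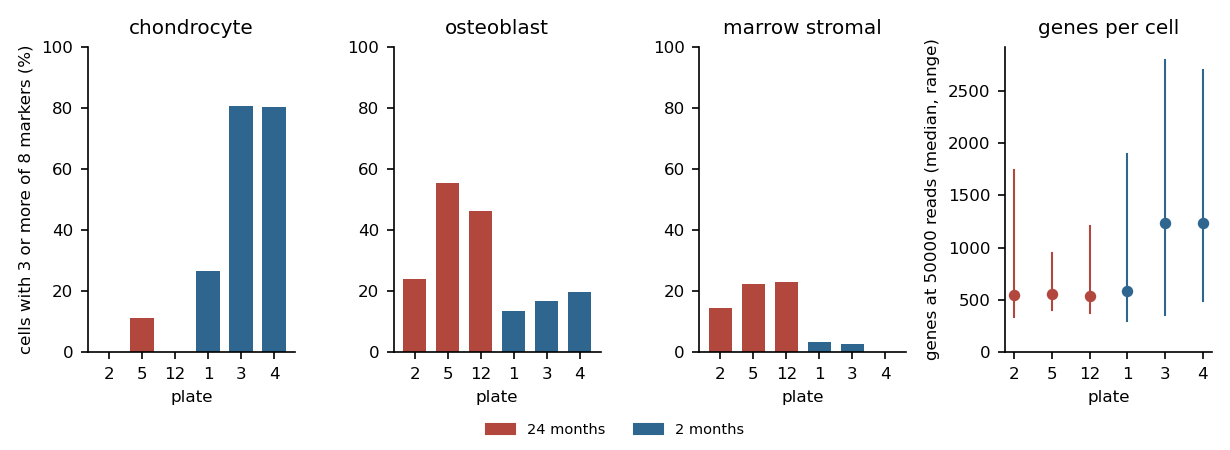
Percentage of passing cells with at least 3 of 8 markers of chondrocytes, osteoblasts and marrow stroma on each plate (bars), and genes per cell at 50000 reads (dots are medians, lines the range). Red marks 24 months (plates 2, 5 and 12) and blue 2 months (plates 1, 3 and 4); chondrocyte markers are frequent on plates 3 and 4 and rare on the red plates, and genes per cell are high only on plates 3 and 4.

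Markers of the joint surface qualified 8 cells at 24 months (12.3%, 5.47% to 22.8%) and 47 at 2 months (25.5%, 19.4% to 32.5%), and those of fibroblasts 4 cells (6.15%) and 16 (8.70%). The plates of the 2 ages overlapped for both classes. Markers of blood, vessel and muscle cells were scarce. With endothelial, smooth muscle, macrophage, T lymphocyte, megakaryocyte, osteoclast or skeletal muscle markers, 0 cells qualified at either age, which allows up to 5.52% of cells at 24 months and 1.98% at 2 months by the exact interval. Neutrophil markers qualified 4 cells, all on plate 2, where the summed level of the 8 markers was 14263 CPM, against 0 and 132.9 CPM on plates 5 and 12 and 0.303 to 27.8 CPM at 2 months. In all, 6 cells at 24 months and 5 at 2 months qualified for a blood class. Without these 11 cells the rule called 2.48% of genes lower and 35 genes higher. The transcripts behind the usual sort for mouse skeletal stem cells were partly present: Itgav, the integrin chain CD51, was at 22.4 CPM at 24 months and 20.8 CPM at 2 months, and Cd200 at 991 and 266.8 CPM, while those of the excluded surface proteins CD45, Tie2, Thy1, 6C3 and CD105 were under 5 CPM at both ages.

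Leaving out the cells with at least 3 chondrocyte markers kept 63 cells at 24 months and 52 at 2 months, and was added after the first counts were seen. Of the 52 cells, 22 were from plate 1 and 15 each from plates 3 and 4. At equal depth the kept cells had a median of 546, 558.5 and 535.5 genes on plates 2, 5 and 12. Those on plate 1 had 525, and those on plates 3 and 4 had 909 and 912. The kept cells of plates 3 and 4 were therefore not matched to the 24-month cells in genes per cell. The rule then called 28 genes lower (0.363%) and 17 higher (0.22%), among them 22 and 10 of those called with all cells. Leaving aside symbols that begin with Gm and a digit or end in Rik, which takes out the named gene Gm2a along with gene models, 95.6% of the genes called lower still had a lower share at 24 months, but their median share difference was -8.41 points, against -24.3 points with all cells. Of the 28 such genes called higher, 27 still had a higher share, and the median was 18.8 points, against 23.1 points with all cells. The difference kept at least 50% of its size for 26.2% of the genes called lower and for 21 of the 28 called higher. All chondrocyte markers except Sox9 are among the genes called lower, and leaving out the cells that held them shrinks their differences by construction. All called genes were also chosen on cells that include the 63 and 52 kept here. Keeping a direction is therefore in large part set by that choice, and no share over all genes was taken beside these counts.

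**Figure D4:**
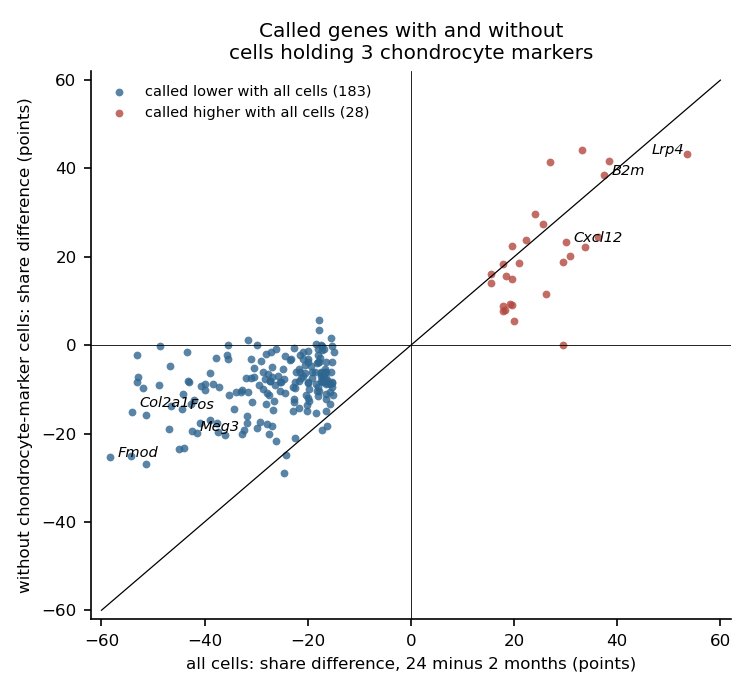
Difference in the share of cells, 24 minus 2 months, in percentage points, with all cells (horizontal axis) and without the cells that held at least 3 chondrocyte markers (vertical axis), for the genes called lower (blue) and the 28 called higher (red), leaving aside symbols that begin with Gm and a digit or end in Rik. The diagonal marks equal differences; blue points lie well above it, near 0, while most red points stay close to it.

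Among the genes called higher at 24 months, Lrp4 had the largest rise in share. It encodes a receptor of the LDL receptor family that binds sclerostin, the inhibitor of bone formation (chromosome 2, 91457511 to 91513779). Its level was 186.7, 407 and 529 CPM on plates 2, 5 and 12 and 32.6, 5.93 and 6.20 CPM on plates 1, 3 and 4. The 24-month plates were all higher, with plate 2 the lowest of them. Means were 374 ± 173.6 and 14.9 ± 15.3 CPM (SD, n = 3 plates each), a level 25.1-fold higher at 24 months. Of 65 cells at 24 months 41 held it (63.1%, 50.2% to 74.7%), against 17 cells at 2 months (9.24%, 5.47% to 14.4%). Counted from all reads, it was in 3.14% of the 24-month wells that did not pass and in 67.7% of those that passed. Without cells of 3 chondrocyte markers the counts were 41 of 63 and 11 of 52, and 4.55% of the left-out 2-month cells held Lrp4.

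Genes of class I antigen presentation and interferon response were higher in part. Of 16 genes, 3 were called higher and 0 lower, with a median log2 difference in level of 1.44. B2m, the invariant chain of class I molecules, was at 1000, 645 and 476 CPM on plates 2, 5 and 12 and at 141.2, 61.5 and 47.1 CPM on plates 1, 3 and 4. H2-D1, a class I heavy chain whose reads can be shared with near-identical H2 genes, was at 3477, 6622 and 6595 CPM against 900, 913 and 433 CPM. Ifitm3, an interferon-induced membrane protein, was at 308, 365 and 421 CPM against 77.02, 19.1 and 6.22 CPM. The plates of the 2 ages were apart for all 3 genes, by the rule. Shares of cells were 67.7% at 24 months and 34.2% at 2 months for B2m, 63.1% and 35.3% for H2-D1, and 38.5% and 4.35% for Ifitm3. Of the 14 members of at least 5 CPM, 9 had a higher and 5 a lower share at 24 months, with a median difference of 2.65 points. H2-K1, a further class I heavy chain, was in 44.6% and 28.3% of cells but was not called, since its level on plate 1, 1619 CPM, lay within the 24-month range of 1019 to 1811 CPM. The peptide transporter genes Tap1 and Tap2 were at 0 and 0.219 CPM at 24 months and at 17.04 and 104.3 CPM at 2 months, and the interferon-induced Ifit1 and Isg15 were held by at most 3.44% of cells at either age. Of the 16 genes 2 were called without cells of 3 chondrocyte markers, H2-D1 no longer.

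The promoters of the 3 called genes were searched for an interferon-type element, written as TTTC, any 2 bases and TTTC again, on both strands of the 250 bases before the start site in RefSeq (GRCm38.p6). It was found for B2m and not for H2-D1 or Ifitm3, and in 2.98% of 32851 promoters. Of the 14 members of the list with an entry, called or not, 5 held it. The B2m window is shown because class I genes are classic targets of such factors; capitals mark the match, which lies on the opposite strand, and the window is chr2:122147518-122147587 (plus strand).
B2m: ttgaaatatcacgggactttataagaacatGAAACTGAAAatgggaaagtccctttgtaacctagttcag

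Of 12 genes of the marrow niche, the stroma that keeps blood stem cells, 3 were called higher at 24 months (Cxcl12, Ebf1 and Vcam1) and 0 lower, with a median log2 difference in level of 2.84 over the 9 genes of at least 5 CPM. Vcam1 alone was called without cells of 3 chondrocyte markers, and the median was then 2.10. Ebf1 also lost its call without the 11 cells of a blood class. Cxcl12, the chemokine that holds blood stem cells in marrow, was at 10348, 9133 and 6967 CPM on plates 2, 5 and 12 and at 1632, 98.98 and 67.1 CPM on plates 1, 3 and 4. Plate 1 stood above the other 2-month plates and below all 24-month plates. The level was 14.7-fold higher at 24 months, and 27 of 65 cells held Cxcl12 (41.5%, 29.4% to 54.4%) against 19 cells (10.3%, 6.33% to 15.7%). Its shares overlapped without cells of 3 chondrocyte markers, at 40% of cells on plate 3 and 28.6% on plate 2. The transcription factor gene Ebf1, needed for this stroma, was at 1753 ± 1414 and 209.3 ± 316 CPM (SD, n = 3 plates each), and the adhesion gene Vcam1 at 693, 427 and 239.6 CPM against 0.0730, 19.9 and 1.94 CPM. Lepr, the leptin receptor that marks adult marrow stroma, was not called: it was in 7 cells at 24 months and 5 at 2 months, and plate 1, at 549 CPM, exceeded every 24-month plate. Of the 27 cells with Cxcl12 at 24 months, 24 also held B2m, 21 held Lrp4, 19 held Igfbp5, 6 held Lepr and 0 held Col2a1. Over all 65 cells these genes were in 44, 41, 28, 7 and 9. Col1a1 was in 15 of the 27 and in 36 of the 65. B2m, Lrp4, Igfbp5 and Col1a1 were themselves called higher on these cells.

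Igfbp5, a binding protein of insulin-like growth factors, was at 3653, 3505 and 1544 CPM on plates 2, 5 and 12 and at 46.3 ± 69.9 CPM over plates 1, 3 and 4 (SD, n = 3), a level 62.6-fold higher. It was the only called gene of 12 in the insulin-like growth factor list; Igf1 itself was in 13.8% and 15.2% of cells. Serping1, the C1 inhibitor of complement, was at 2303, 995 and 3945 CPM against 94.7, 81.6 and 3.78 CPM and was the only called gene of 14 complement genes. Gpx3, the extracellular glutathione peroxidase, was at 21055, 6817 and 8652 CPM against 1132, 969 and 1926 CPM and was held by 83.1% and 60.9% of cells. It was also frequent in the 2-month cells with chondrocyte markers, at 69.7%. B4galt1, a galactosyltransferase of the Golgi, Ssr1, a subunit of the translocon-associated complex of the endoplasmic reticulum, and Tmsb4x, an actin-binding peptide, completed the largest rises, with levels 7.403-fold, 6.09-fold and 11.2-fold higher. Gpx3 and Ssr1 were still called without cells of 3 chondrocyte markers, and Igfbp5, Serping1, B4galt1 and Tmsb4x were not. Cd200, itself a surface protein used to sort these cells, was at 303, 1884 and 786 CPM against 293, 242.3 and 264.9 CPM, so plate 2 exceeded plate 1 by a small margin, and its call was lost without the cells of a blood class and without those of 3 chondrocyte markers.

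Of 18 osteoblast and bone matrix genes, Col1a1 alone was called higher and 0 lower. Over the 17 of at least 5 CPM the median log2 difference in level was 1.13 and the median share difference 3.33 points, with 13 shares higher and 4 lower. These medians were 0.071 and 2.02 points without cells of 3 chondrocyte markers. Col1a1, a chain of type I collagen, was at 10469, 19874 and 13490 CPM on plates 2, 5 and 12 and at 9075, 741 and 4191 CPM on plates 1, 3 and 4. Its call was lost under the TMM scaling, with at least 1000 genes per cell and in cells of 500 to 1000 genes. It was also lost without the cells of 3 chondrocyte markers, where shares were 57.1% of 63 and 53.8% of 52 cells. Spp1, which encodes osteopontin, was in 44 of 65 cells (67.7%) against 57 cells at 2 months (30.98%), and Ibsp, bone sialoprotein, in 41 (63.1%) against 46 (25%). Neither was called, since the levels overlapped: Ibsp was at 4476, 2976 and 5133 CPM on plates 2, 5 and 12 and at 987, 6600 and 6707 CPM on plates 1, 3 and 4. Runx2, the factor that commits cells to bone, was at 228.4, 717 and 868 CPM against 162.9 ± 26.8 CPM over the 2-month plates (SD, n = 3), with shares of 21.5% and 20.1% of cells.

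The immediate early genes, switched on within minutes of a stimulus, were lower at 24 months. Of 21 genes 10 were called lower (Fos, Fosb, Jun, Junb, Egr1, Ier2, Nr4a1, Klf4, Dusp1 and Zfp36) and 0 higher, and all 21 had a lower share, with a median difference of -31.6 points and a median log2 difference in level of -2.60. Fos, a subunit of the AP-1 factor, was at 1210, 17.5 and 74.5 CPM on plates 2, 5 and 12 and at 4070, 3756 and 4367 CPM on plates 1, 3 and 4. The 2-month plates lay close together, plate 1 included, and plate 2 was the highest of 24 months. Egr1 was at 238.7, 29.6 and 154.2 CPM against 2485, 1493 and 1300 CPM, and Junb at 915, 42.5 and 789 CPM against 6373, 3871 and 4118 CPM. Fos was held by 11 of 65 cells (16.9%, 8.76% to 28.3%) at 24 months and by 67.4% of cells at 2 months (60.1% to 74.1%). Within 2 months it was in 110 of the cells with 3 chondrocyte markers (83.3%) and in 14 of the other 52 (26.9%), beside 9 of 63 such other cells at 24 months (14.3%). The 2-month cells with these markers also held more genes per cell. Gapdh was in 64.4% of them and 38.5% of the other 2-month cells, and Tmsb4x in 7.58% and 23.1%. The part of genes per cell in the contrast for Fos was not tested. Without cells of 3 chondrocyte markers, 2 of the 21 genes (Egr1 and Nr4a1) were called lower, the median log2 difference was -1.70 and the median share difference -5.50 points. In cells of 500 to 1000 genes 1 of the 21 was called, with medians of -2.18 and -8.33 points, and without plate 1 16 were called. These genes also respond to tissue digestion, and the time from bone to lysis is not labelled; its part in the difference was not tested.

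Of 18 heat shock genes 4 were called lower and 0 higher, beside 2.45% of all genes of at least 20 CPM called lower. Their median share difference was -15.2 points and their median log2 difference in level -0.56. Over all genes of at least 5 CPM these medians were -2.65 points and -0.365. The share median of ribosomal protein genes, described below, was -18.1 points. Hspa1a, the inducible HSP70 chaperone, was at 1280, 0 and 146.2 CPM on plates 2, 5 and 12 and at 2531, 1683 and 2670 CPM on plates 1, 3 and 4. Its near-identical copy Hspa1b was at 33.8 and 7.70 CPM, and reads of the pair cannot be assigned with certainty. Dnajb1, its co-chaperone, was in 3.08% and 33.7% of cells, with 19.7 ± 17.1 and 1325 ± 150 CPM (SD, n = 3 plates each). Hsp90aa1 and the mitochondrial chaperonin Hspd1 were the other called members. The plates of 2 months were alike for Dnajb1, at 1203 to 1493 CPM, and those of 24 months were at 0 to 30.03 CPM. Without cells of 3 chondrocyte markers, and in cells of 500 to 1000 genes, 0 of the 18 were called, and without plate 1 8 were.

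Promoters of the called heat shock genes were searched for GAANNTTC, a pair of facing units of the element bound by heat shock factor. In the 250 bases before the start site, 6.69% of 32851 promoters held it. So did 6 of the 13 members of the heat shock list with an entry, called or not. Among the called members it was found for Hspa1a and Hspd1 and not for Dnajb1, while Hsp90aa1 had no matching entry. Both windows are shown 5′ to 3′ on the strand of the gene because these members were called together; capitals mark the match. They lie at chr17:34972223-34972290 and chr1:55088034-55088101, both on the minus strand of GRCm38.p6.
Hspa1a: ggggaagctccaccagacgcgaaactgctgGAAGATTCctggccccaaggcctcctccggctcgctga
Hspd1: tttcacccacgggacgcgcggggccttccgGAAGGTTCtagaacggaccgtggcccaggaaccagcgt
The 3 printed matches are descriptions of sequence and were not tested for binding.

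Imprinted growth genes, which are expressed from a single parental copy and are most active in young tissue, were low at 24 months. Of 12 genes, 4 were called lower (Peg3, Meg3, Cdkn1c and Grb10) and 0 higher. Meg3, a long noncoding RNA, was at 0, 12.2 and 0 CPM on plates 2, 5 and 12 and at 1237, 392 and 459 CPM on plates 1, 3 and 4. Peg3 had 0 reads in all 65 cells of 24 months and was in 69 cells at 2 months (37.5%, 30.5% to 44.9%), a level at least 20775-fold lower against the floor of 3 reads. Neither gene overlapped between ages, and 0 of 63 cells at 24 months without 3 chondrocyte markers held Meg3, against 10 of 52 such cells at 2 months (19.2%) and 62.9% of those with the markers. The median log2 difference in level of the 10 genes of at least 5 CPM was -5.46, or -5.52 with genes at 0 reads set to their floor. Without cells of 3 chondrocyte markers Meg3 alone was called and the median was -0.689, and in cells of 500 to 1000 genes 1 gene was called and the median was -0.190. H19, Mest and Ndn, at 0, 0.0116 and 0 CPM at 24 months, were not called, because at most 11.1% of 2-month cells held them.

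**Figure D5:**
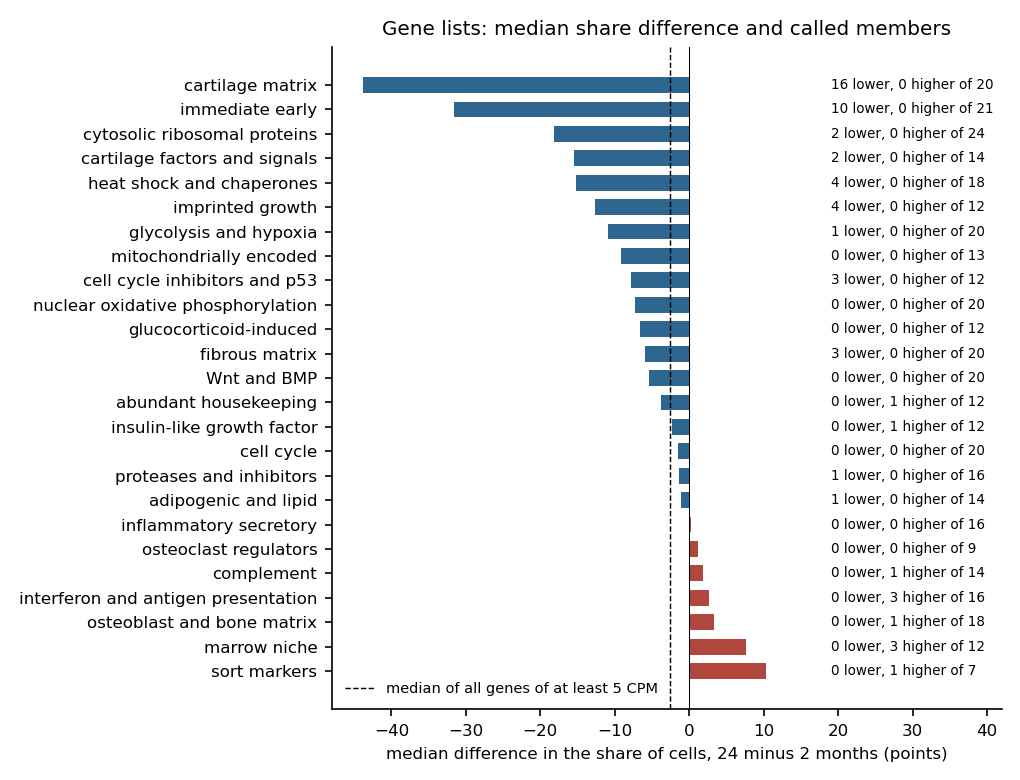
Median difference in the share of cells, 24 minus 2 months (points, bars), over the members of each gene list with at least 5 CPM at either age, with the number of members called lower and higher beside each bar. The dashed line marks the median over all 11275 genes of at least 5 CPM, -2.65 points; cartilage matrix and immediate early genes reach furthest below it, and marrow niche and sort markers furthest above. The bar of the sort markers is the median of 2 genes, 1 with a lower and 1 with a higher share.

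Other lists gave few or no calls. Ribosomal protein genes had a lower share at 24 months in 24 of 24 cases, with a median of -18.1 points, but a median log2 difference in level of -0.18, and 2 were called lower, Rps24 among them. The median share difference turned to 5.02 points in cells of 500 to 1000 genes and to 0.584 points without cells of 3 chondrocyte markers, with 0 calls in both. Genes per cell were lower on the 24-month plates and on plate 1, and Gapdh, which nearly every cell uses, was in 29.2% and 57.1% of cells while its levels were 701 and 500 CPM. Actb was in 96.9% and 86.4% of cells. The part of RNA content per cell in share differences of this kind was not tested. The glycolysis list had 1 gene called lower (Pfkl), or 5 without plate 1, and nuclear and mitochondrial genes of oxidative phosphorylation had 0 calls in either direction. Of 20 cell cycle genes 0 were called, and 9 of them, Mki67 included, were under 20 CPM at both ages. Among 12 cell cycle inhibitors and p53 genes, Cdkn1c, Gadd45b and Gadd45g were called lower. Cdkn2a, whose product p16 marks senescent cells, had 0 reads at both ages, and Cdkn1a, the p21 gene, was in 29.2% and 26.6% of cells.

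Signals to osteoclasts, the bone-resorbing cells, gave 0 calls among 9 genes. Csf1, which drives osteoclast precursors, was at 52.1, 33.3 and 478 CPM on plates 2, 5 and 12 and at 29.6, 18.9 and 68.2 CPM on plates 1, 3 and 4. The high mean of 24 months came from plate 12, while plates 2 and 5 lay within the 2-month range. Of 65 cells 8 held Csf1 (12.3%, 5.47% to 22.8%), against 12 cells at 2 months (6.52%, 3.42% to 11.1%). Tnfsf11, the osteoclast signal RANKL, was in 1 cell at each age, and its decoy receptor gene Tnfrsf11b was in 10.8% and 23.9% of cells.

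The genes called in each direction occurred together in single cells to unequal extents. With the same symbols left aside, of the 28 genes called higher a cell held a median of 8, 14 and 12.5 on plates 2, 5 and 12 and of 2, 5 and 4.5 on plates 1, 3 and 4. Of the genes called lower, these medians were 8, 6.5 and 8.5 against 17, 75 and 72.5. Since these genes were chosen on the same cells, the order of the ages in these counts is set by the choice; the spread within an age is not, and plate 1 stood near the 24-month plates in the genes called lower.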

How the data were processed

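The authors deposited 1 table of RSEM expected counts per gene and well. Per the submitters' processing notes, bcl2fastq 2.18, STAR 2.4 and RSEM 1.2.21 were used with the build GRCm38.p6; the release of the annotation is not given in the sources used here. Of its values above 0, 14.8% were not whole, and all were rounded to whole counts. The 92 ERCC spike-in rows were kept out of totals. Each column found its sample through plate, well, age and index pair, because names on plate 4 carry another prefix than its titles, and 1 column without a sample was not used. Rows named by a number of 5 digits are not reported, and some members of the lists are not reported by name here.

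Levels, shares, lists and marker classes were computed with Python 3.11.15, numpy 2.4.6, pandas 2.3.3 and scipy 1.17.1, and TMM factors with edgeR 4.0.16 in R 4.3.3. Gene coordinates are from GENCODE for GRCm38. Members, gene lists and markers were chosen with earlier results of these data known. Genes named are 28 fixed genes, the 12 largest rises and 12 largest falls in share among called genes, without symbols that begin with Gm and a digit or end in Rik, and up to 4 members of each list with the largest share difference; other members of a list are named with its count. The code of the rule was tried on simulated plates drawn at random from the 2-month cells, with reads of chosen genes removed. Those plates had no built-in difference in batch or genes per cell, so that trial cannot speak to either in the real comparison. The rule was repeated under 20 other settings of the cell filter, scaling, detection, pseudocount, level minimum and plates. A further 3 settings were chosen after the data were seen.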

Additional observations from a re-analysis of the deposited data

How the results depend on the processing

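Counts of calls are given as a percentage of the genes that reached 20 CPM under each setting. With at least 1000 genes per cell, which left 15 cells at 24 months, 4.84% of genes were called lower and 0.857% higher. Most of these higher calls were other genes, since only 10 of the 29 called higher with all cells kept their call. Lrp4, B2m, Cxcl12, Igfbp5, Ifitm3, Tmsb4x and Vcam1 were among those that lost it. The median log2 difference was 4.17 for marrow niche and 0.479 for interferon and antigen presentation genes. In cells of 500 to 1000 genes (50 and 31 cells), 0.514% were lower and 0.907% higher, the difference in genes per cell at equal depth was -38 genes, against -473 with all cells, the interferon median was 0.474, and 19 of the genes called lower with all cells were still called while 28 turned direction in level, Cdkn1c among them at 5.00 on the log2 scale. Leaving out 1 plate at a time gave 2.25% to 4.95% lower and 0.441% to 0.80% higher, with medians of -7.27 to -4.18 for cartilage matrix, 0.42 to 2.06 for interferon and 2.16 to 5.25 for marrow niche genes. Fewer plates make an overlap less likely by construction. The most lower calls came without plate 1 and the most higher calls without plate 2, the plate with 4 neutrophil-marker cells. Without cells of 3 chondrocyte markers, added after seeing the data, 0.363% were lower and 0.22% higher. The cause was not tested. Under all 20 settings other than the 3 added after seeing the data, 6 of the genes called lower (Fmod, Col9a1, Meg3, Scrg1, Mia and Thbs1) and 2 of the 28 higher (B4galt1 and Gpx3) were called. Of these, only Fmod, Meg3 and Gpx3 were also called without cells of 3 chondrocyte markers. At 24 months a gene held by 0 of the 65 cells can be present in up to 5.52% by the exact interval. No paired analysis was possible because the labels give no number shared by wells of both ages and no test was made.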

Other observations

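Several called genes belong to no list above and were picked after their values were seen. Among those lower at 24 months were secreted cartilage products: Scrg1 was at 24.9 CPM at 24 months and 308 CPM at 2 months, Mia at 8.72 and 285.8 CPM, and the matrix protein gene Prelp at 714 and 3025 CPM. The matricellular genes Thbs1 and Cyr61 were at 0.272 and 360 CPM against 938 and 3516 CPM, and Socs3, a feedback inhibitor of cytokine signals, was at 273.2 against 2054 CPM.

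Among those higher were Hp, which encodes the haemoglobin-binding haptoglobin, at 1285, 330 and 1149 CPM on plates 2, 5 and 12 against 0, 94.8 and 49.1 CPM on plates 1, 3 and 4, and Rarres2, which encodes the chemerin precursor, at 330, 469 and 422 CPM against 36.4, 5.91 and 6.75 CPM. Runx1, a transcription factor of the family of Runx2, was at 527, 184.7 and 579 CPM against 6.98, 48.7 and 56.9 CPM. Without the 11 cells of a blood class, 4 of them with neutrophil markers on plate 2, the calls of Hp and Runx1 were lost. Without plate 2 Hp lost its call too, as it did without plate 1 or plate 12, and Runx1 lost its call without plate 1. Both calls were also lost without cells of 3 chondrocyte markers. Without plate 5 Rarres2 lost its call. Gas6, a ligand of TAM receptors, was at 1057 against 129.3 CPM. Adipoq, the adipokine of fat cells and marrow stroma, was not called: it was in 6 cells at 24 months and 1 at 2 months, at 357, 1.25 and 342 CPM on plates 2, 5 and 12 and at 0, 14.8 and 0 CPM on plates 1, 3 and 4.

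Some of the gene models left out of the named genes had large falls in share. Gm10800 was in 100% of cells on plates 3 and 4, in 56.7% on plate 1 and in 19.1%, 55.6% and 42.3% on plates 2, 5 and 12. It was also found in 68.2% of the wells at 24 months that did not pass and in 68.9% of those at 2 months, where Actb was found in 22.4% and 26.2%.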
